A study of Capra hircus with 90 samples.

Results

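GABRB2 encodes the beta-2 subunit of the GABA-A receptor, and its transcript was followed here through 3 brainstem sites and 5 exposures of goats to CO2. It is 1 gene of the 25144 in the count table and was found there as ENSCHIG00000024858, because its mean abundance in the authors' deposited table equals that of this row alone. The gene carries a symbol only because the authors listed it among genes that differed in 1 comparison, the nucleus of the solitary tract after 24 h of CO2. The values of that comparison therefore chose the gene, and they are given below as a description with no test.

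The GABA-A receptor is a pentameric chloride channel that opens when GABA binds, and it carries most fast inhibition in the brain. Beta subunits form part of the GABA binding site, and receptors with alpha, beta and gamma subunits make up most of the synaptic pool. In the brainstem, GABA-A receptors set the excitability of neurons that receive chemoreceptor and lung afferents and of neurons that form the breathing rhythm. No other subunit of the receptor was analysed here.

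The 30 animals were outbred female goats of several breeds, adult and at least 2 years old, and 6 had each exposure; RNA came from whole punches of their frozen brainstems. Goats breathed room air for 24 h, 6% CO2 for 3 h or 6% CO2 for 24 h, and their RNA was extracted and sequenced as the first batch. The second batch held goats kept 7 d in room air or 7 d in 6% CO2, so time and batch cannot be told apart between the 24 h and 7 d series. Punches were taken 0 to 2 mm rostral to the obex for the nucleus of the solitary tract (NTS), 2 to 4 mm for the ventral respiratory column (VRC) and 8 to 10 mm for the retrotrapezoid nucleus (RTN), which gave 15 groups of 6 libraries. A punch holds every cell type at its place, and in such bulk samples fewer cells of a type and less RNA per cell cannot be told apart.

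Libraries held 5456538 to 36756816 counts, and GABRB2 had between 30 and 319 counts in each. Values are CPM, counts scaled to a common library total, after adjusting the totals by TMM over the 90 libraries. GABRB2 averaged 4.95 CPM and its mean log2 abundance of 2.33 lay at percentile 33.6 of the 17730 genes in the fit that linked the symbols. Among the 18 NTS libraries of the first batch, 5 stood apart on principal component 1 (28.9% of the variance). They were room-air numbers 5 and 6, numbers 5 and 6 exposed for 3 h, and number 5 exposed for 24 h. Their scores were 15.1 to 71.4, against -35.9 to -9.64 in the other 13. The score of 15.1 was that of number 5 exposed for 24 h, which lay between the others and the next of the 5, at 40.6.

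**Figure D1:**
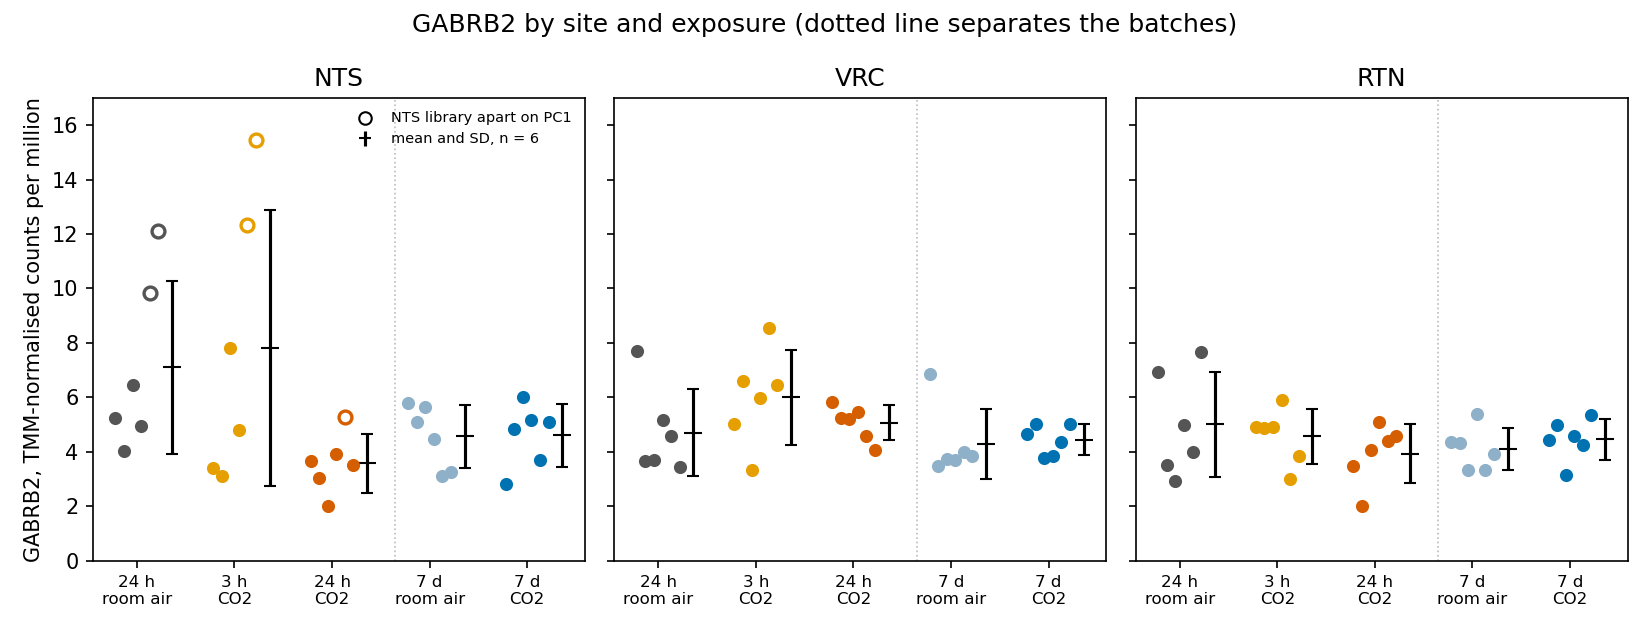
GABRB2 in TMM-normalised CPM (vertical axis) in each of 90 libraries, by site (panels) and exposure (horizontal axis). Filled points are libraries, open points the 5 NTS libraries that stood apart, and bars show mean and SD of 6 libraries. The only libraries above 9 CPM are 4 of the open points, in NTS room air and after 3 h of CO2.

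GABRB2 was detected in every library, at 1.99 to 15.4 CPM, and its group means lay in a narrow range outside the NTS of the first batch. The highest mean was that of the NTS after 3 h of CO2, 7.82 ± 5.08 CPM (SD, n = 6 in this and every group), followed by the NTS in 24 h of room air at 7.09 ± 3.19 CPM and the VRC after 3 h of CO2 at 5.99 ± 1.73 CPM. The lowest was that of the NTS after 24 h of CO2, 3.57 ± 1.08 CPM, and the next lowest that of the RTN after 24 h of CO2, 3.93 ± 1.09 CPM. The 10 groups between these averaged 4.11 to 5.07 CPM. Between neighbours in the order of means, only the step from the VRC after 3 h to the VRC after 24 h of CO2, 0.926 CPM, was larger than the smaller of both SDs, and it was smaller than the larger one.

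In the NTS in 24 h of room air, libraries 1 to 6 held 5.22, 4.01, 6.43, 4.93, 9.84 and 12.1 CPM of GABRB2. After 24 h of CO2 they held 3.66, 3.04, 2.02, 3.93, 5.29 and 3.52 CPM. The 2 highest room-air values belong to libraries that stood apart, and so does the highest value after CO2, which is the only one above the lowest of room air. The authors' deposited table for this comparison gives GABRB2 a log2 change of -0.98 with an adjusted p of 0.0293. There it is number 124 of 180 genes by p-value and 1 of 155 listed as lower, and none of the other 8 deposited tables lists it. The listed genes are 1.02% of the 17730 genes of the linking fit. In the quasi-likelihood fit used here the log2 difference was -0.95 (SE 0.39). Over the whole table, 0 of 15605 genes passed an adjusted p of 0.05 (0%; edgeR). At an unadjusted 0.05 there were 1591, and the adjusted counts were 191 by DESeq2 and 273 by limma's voom.

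Leaving aside the 5 libraries that stood apart, GABRB2 averaged 5.15 ± 1.00 CPM in NTS room air (n = 4) and 3.23 ± 0.75 CPM after 24 h of CO2 (n = 5). The remaining values ran from 4.01 to 6.43 CPM and from 2.02 to 3.93 CPM. These ranges did not overlap only because library 5 of CO2, at 5.29 CPM, was among those left out. The gene was chosen on this comparison, so the gap is a description and was not tested. The log2 difference was then -0.64 (SE 0.26). Leaving out 1 library at a time moved it between -1.11 and -0.74, and the value nearest 0 came without number 6 of room air.

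After 3 h of CO2 the NTS libraries 1 to 6 held 3.39, 3.12, 7.81, 4.80, 12.3 and 15.4 CPM. Both the lowest and the highest values lay outside the range of NTS room air, which these goats share as their control with the 24 h group. The log2 difference from room air was 0.14 (SE 0.37), and it was -0.23 (SE 0.27) without the libraries that stood apart. Between 24 h and 3 h of CO2 it was -1.09 (SE 0.39) with all libraries and -0.41 (SE 0.28) without those 5. Both comparisons use libraries on which the gene was chosen and were not tested; in each, 0 of 15605 genes passed by edgeR (0%), with 1053 and 1776 at unadjusted p under 0.05.

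The 5 libraries that stood apart also held much more of PRPH, the neuronal intermediate filament peripherin, which is typical of neurons that send axons out of the brain and of sensory neurons. PRPH measured 215 and 571 CPM in room-air libraries 5 and 6, 739 and 1093 CPM in libraries 5 and 6 of 3 h, and 35.3 CPM in library 5 of 24 h. The other 13 NTS libraries of the first batch held 1.91 to 5.82 CPM. GABRB2 had a median of 12.1 CPM in the 5 libraries and of 3.93 CPM in the other 13. Library by library, the order of GABRB2 among the 5 was that of PRPH. Over these 18 libraries log2 GABRB2 and the first component correlated with r = 0.90 and rho = 0.88, points that share normalisation and, in groups of 6, exposure. The part of these libraries' makeup in the lower GABRB2 after 24 h of CO2 was not tested; the difference without them is the value given above.

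**Figure D2:**
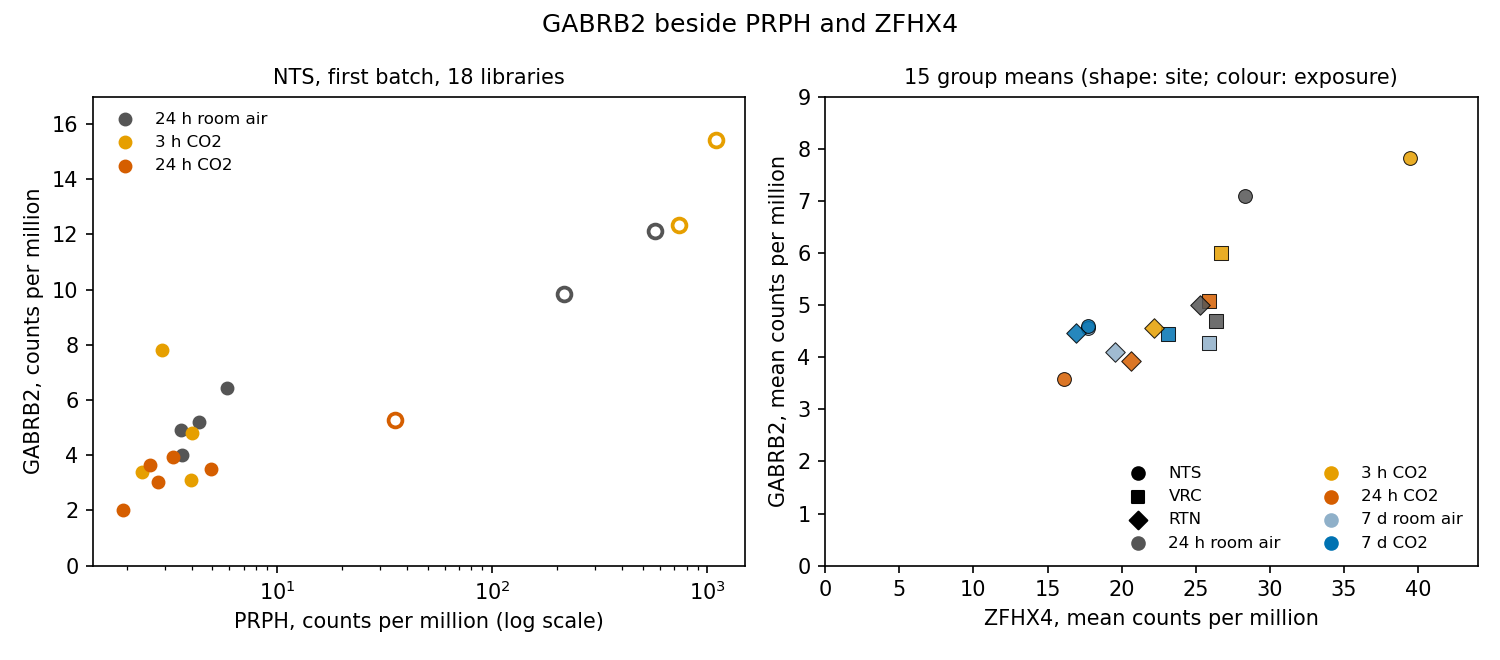
Left, GABRB2 (vertical axis, CPM) against PRPH (horizontal axis, CPM on a log scale) in the 18 NTS libraries of the first batch, open points being the 5 that stood apart; right, group means of GABRB2 against ZFHX4 (both in CPM) for 15 groups. On the left the 5 open points hold 35.3 to 1093 CPM of PRPH and every other library at most 5.82 CPM.

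Of 56 markers of cell types and sites listed for this study, 9 could be linked to a row, PRPH among them, and the rest were not analysed here. GRP and NPFF, neuropeptide genes listed for the NTS, reached 49.9 and 92.2 CPM in the libraries that stood apart, where their medians were 20.5 and 9.38 CPM. In the other 13 their medians were 0.985 and 0.485 CPM and their highest values 14.4 and 1.24 CPM. AIF1, a microglial gene, had a median of 73.6 CPM in the 5 and 52.4 CPM in the 13, and was higher in 4 of the 5 than in any of the 13. The oligodendrocyte factors OLIG1 and OLIG2 had medians of 31.4 and 8.07 CPM in the 5 and of 40.2 and 12.3 CPM in the 13. Of the blood genes, HBQ1 had medians of 16.7 and 10.8 CPM and HEMGN of 0.247 and 1.11 CPM. TTR of the choroid plexus had medians of 3.65 and 1.81 CPM, and its highest value, 156 CPM, was in one of the 13.

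The second series compares CO2 with room air in the NTS of other goats, in another batch and after 7 d of exposure. It is therefore not a repeat of the 24 h comparison. Room-air libraries 1 to 6 held 5.79, 5.10, 5.64, 4.48, 3.12 and 3.26 CPM of GABRB2, and those exposed to CO2 held 2.80, 4.83, 6.02, 5.18, 3.68 and 5.11 CPM. PRPH in these 12 libraries ranged from 2.28 to 122 CPM. The groups overlapped nearly in full, and their means were 4.56 ± 1.16 and 4.602 ± 1.16 CPM. The log2 difference was 0.01 (SE 0.22, 95% interval -0.46 to 0.47; edgeR quasi-likelihood test, adjusted p = 0.994). Of 15311 genes 0.00653% passed 0.05 in this comparison. The 7 d effect minus the 24 h effect was 0.97 on the log2 scale (SE 0.48), and 0.64 (SE 0.34) without the libraries that stood apart; 0.449% of genes passed for it. As it contains the 24 h comparison of the NTS, it was not tested. The libraries that stood apart are all of the first batch, so no 7 d library was left out, although PRPH ranged up to 122 CPM among these.

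In the VRC, which holds the neurons of the breathing rhythm, GABRB2 in 24 h of room air measured 7.69, 3.66, 3.69, 5.17, 4.56 and 3.42 CPM. After 3 h of CO2 it measured 5.03, 6.60, 3.34, 5.99, 8.54 and 6.47 CPM, and after 24 h 5.83, 5.24, 5.21, 5.47, 4.58 and 4.08 CPM. All 3 groups overlapped, and the room-air values were at or below 5.17 CPM apart from library 1. The log2 difference from room air was 0.31 at 3 h (SE 0.22, 95% interval -0.15 to 0.76; edgeR, adjusted p = 0.568), where 0.013% of genes passed 0.05. Leaving out room-air library 1 gave 0.55 (edgeR, unadjusted p = 0.0166, adjusted p = 0.296), leaving out library 3 of 3 h gave 0.44 (edgeR, unadjusted p = 0.0459, adjusted p = 0.356), and leaving out library 5 of 3 h gave 0.18. At 24 h the log2 difference was 0.06 (SE 0.23, 95% interval -0.42 to 0.54; edgeR, adjusted p = 0.943), where 0.817% of 15424 genes passed.

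In the VRC of the 7 d goats, room-air libraries held 6.87, 3.49, 3.73, 3.71, 4.01 and 3.86 CPM. Those exposed to CO2 held 4.66, 5.02, 3.75, 3.85, 4.37 and 5.03 CPM. Library 1 of room air was the highest of both groups, and the other 5 lay at or below 4.01 CPM. The log2 difference was 0.07 (SE 0.19, 95% interval -0.33 to 0.46; edgeR, adjusted p = 0.952). Adjusted edgeR p-values called 0 of 15179 genes (0%) here and unadjusted ones 996, against 2 adjusted calls by DESeq2 and 0 by voom.

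In the RTN, a site where neurons sense CO2, GABRB2 in 24 h of room air measured 6.94, 3.52, 2.92, 4.99, 3.99 and 7.67 CPM. After 3 h of CO2 it measured 4.89, 4.88, 4.90, 5.89, 3.00 and 3.84 CPM, and after 24 h 3.47, 1.99, 4.06, 5.09, 4.39 and 4.57 CPM. The highest values, in room-air libraries 1 and 6, were above all 12 of both CO2 groups, while the other 4 lay among them. The log2 difference was -0.14 at 3 h (SE 0.24, 95% interval -0.63 to 0.36; edgeR, adjusted p = 0.935; 0.0129% of genes passed). At 24 h it was -0.34 (SE 0.25, 95% interval -0.87 to 0.18; edgeR, adjusted p = 0.870). With 1 library left out it ran from -0.47, without room-air number 3, to -0.20, without room-air number 6, and passed in none of these fits. In the RTN at 24 h edgeR called 0 of 15479 genes (0%) after adjustment and 1001 before it, DESeq2 9 and voom 0 after it.

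In the RTN of the 7 d goats, room-air libraries held 4.37, 4.31, 3.34, 5.39, 3.33 and 3.91 CPM. Those exposed to CO2 held 4.43, 4.99, 3.14, 4.59, 4.25 and 5.35 CPM, so the groups overlapped. The log2 difference was 0.12 (SE 0.17, 95% interval -0.24 to 0.48; edgeR, adjusted p = 0.999). Without room-air number 5 it was 0.06 and without room-air number 4 it was 0.20, and neither passed. Called by edgeR were 0 of 15326 genes (0%) after adjustment and 499 before it, by DESeq2 2 and by voom 0 after it.

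**Figure D3:**
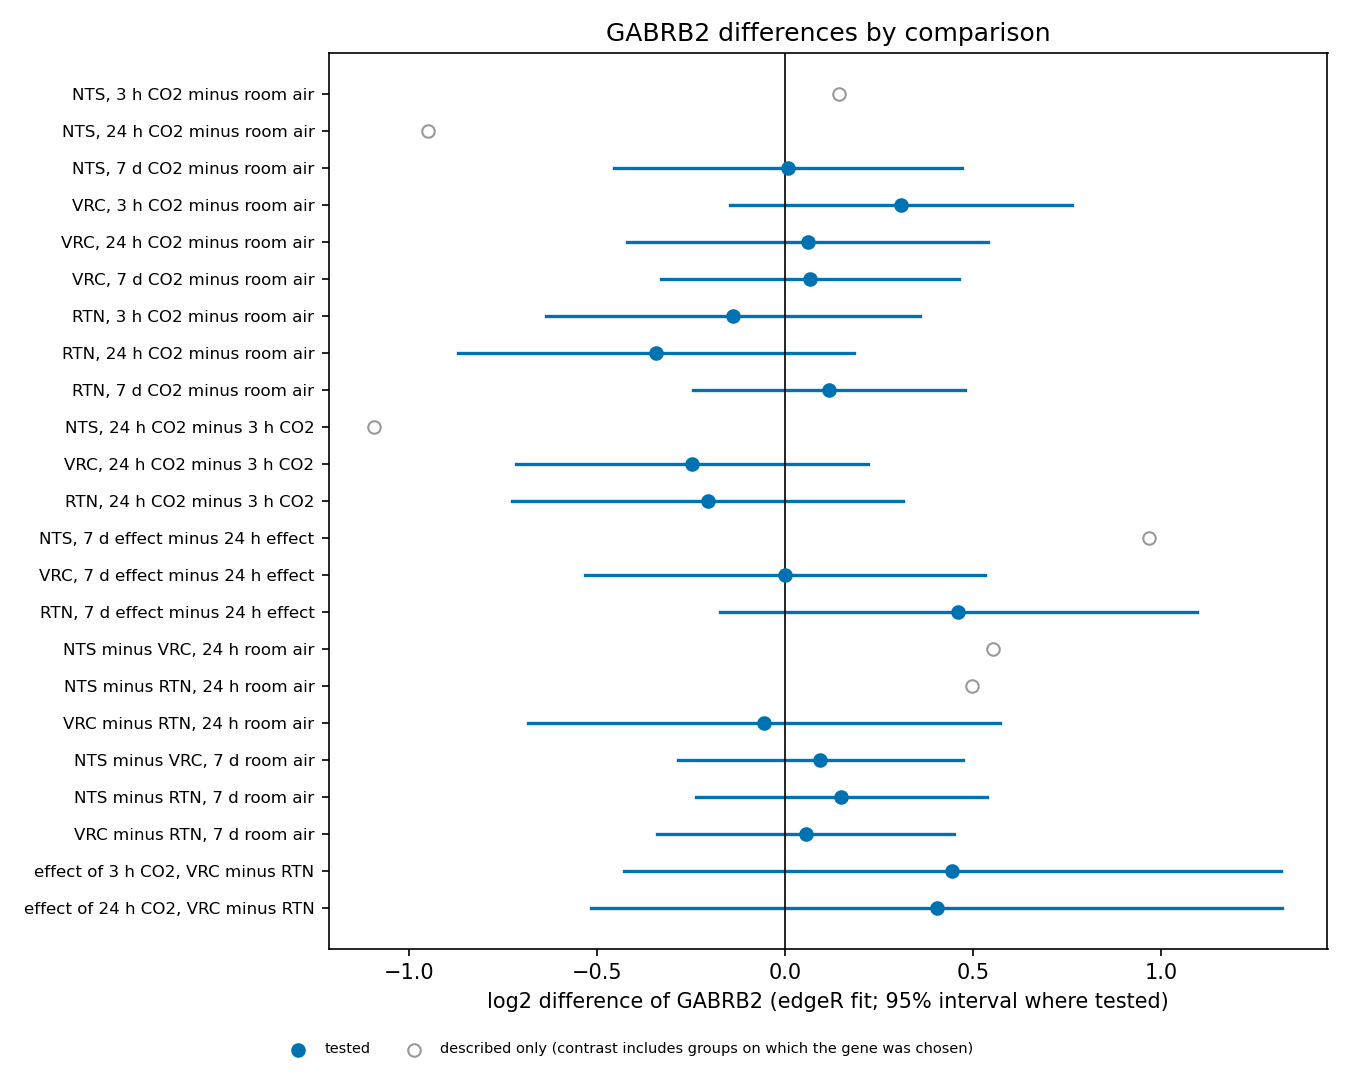
Log2 differences of GABRB2 (horizontal axis) from the edgeR fit, by comparison (vertical axis). Filled points were tested and have their 95% interval; open points are contrasts that include the groups on which the gene was chosen. Each interval spans 0, and the open point of the NTS at 24 h lies at -0.95.

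Of 26 comparisons made for GABRB2, 18 contrast none of the groups on which it was chosen, and 0 of these 18 passed 0.05 by edgeR with all libraries, either adjusted over all genes or unadjusted. Of these, 3 that set VRC against RTN in the first batch share 1 estimate of spread with the NTS libraries of that batch, and are given below also without them. The lowest unadjusted p was 0.149, for the 7 d effect minus the 24 h effect in the RTN, a log2 difference of 0.46 (SE 0.31, 95% interval -0.17 to 1.10). CO2 and room air were also compared by an exact two-sided permutation test of 6 against 6 log2 values. In the 7 tested comparisons this permutation test gave a lowest p of 0.195, in the VRC at 3 h, and adjusted p of 0.810 or more. The adjustment ran over 9 comparisons, as it took in the NTS at 3 h and 24 h, which use groups on which the gene was chosen. The design allows a p as low as 0.00216. In none of the 18 did DESeq2 or voom call GABRB2. A missed threshold does not show that levels were equal: the intervals leave room for log2 differences of 0.46 to 0.87 in one direction or the other within these CO2 comparisons.

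Whether the effect of CO2 differed between sites was tested for contrasts that leave out the NTS of the first batch. Between VRC and RTN it differed by 0.44 on the log2 scale at 3 h (SE 0.43; edgeR, adjusted p = 1.00; 0.11% of genes passed) and by 0.40 at 24 h (SE 0.46; edgeR, adjusted p = 0.999; 0.661% passed). In a fit of the 36 VRC and RTN libraries alone these differences were 0.44 (SE 0.33; edgeR, adjusted p = 0.997) and 0.39 (SE 0.35; edgeR, adjusted p = 0.911). At 7 d the largest difference between any 2 of the 3 sites was 0.11. A joint edgeR F test of the effect over the 3 sites gave adjusted p = 0.994. For that, edgeR called 0 of 16050 genes (0%) after adjustment and 761 before it, DESeq2 4 and voom 0. With the NTS of the first batch among the sites, the largest difference at 3 h was 0.44 (0.0673% of genes passed the joint comparison). This is the VRC minus RTN value again, as the NTS effect lay between those of VRC and RTN. At 24 h the largest difference was 1.005 (1.92% passed), and it involves the NTS. The joint comparisons of the 3 sites at 3 h and 24 h were not tested for GABRB2.

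Between sites, GABRB2 passed in none of the tested comparisons of goats without CO2. The fits took the punches as independent, although punches of the same number and exposure correlated over all genes. With that number as a block GABRB2 passed in none either. In the 7 d room-air goats it averaged 4.56 ± 1.16 CPM in the NTS, 4.28 ± 1.28 CPM in the VRC and 4.11 ± 0.77 CPM in the RTN. NTS minus VRC was 0.09 on the log2 scale (SE 0.19; edgeR, adjusted p = 0.804), while 12.9% of 16050 genes passed between these sites. NTS minus RTN was 0.15 (SE 0.19; edgeR, adjusted p = 0.678; 12.2% passed) and VRC minus RTN 0.06 (SE 0.19; edgeR, adjusted p = 0.904; 6.77% passed). In 24 h of room air VRC and RTN averaged 4.70 ± 1.61 and 5.00 ± 1.92 CPM, a log2 difference of -0.06 (SE 0.31; edgeR, adjusted p = 0.945; 5.46% passed), and -0.05 (SE 0.24; edgeR, adjusted p = 0.927) without the NTS libraries in the fit. The NTS of those goats lay above the VRC by 0.55 (SE 0.29; 10.4% of genes passed) and above the RTN by 0.50 (SE 0.29; 4.63% passed), and by 0.11 and 0.05 (SE 0.25 each) without the libraries that stood apart. These last values use the room-air libraries on which the gene was chosen and were not tested.

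Among punches that carry the same number within an exposure, GABRB2 was highest in the NTS in 12 of 30 sets, in the VRC in 14 and in the RTN in 4. Deviations of log2 GABRB2 from the group means did not run together over sites: over 30 sets the correlation was 0.01 between NTS and VRC, -0.05 between NTS and RTN, and 0.04 between VRC and RTN. The high NTS libraries of the first batch differed in this. Room-air library 5, with 9.84 CPM in the NTS, had 4.56 CPM in the VRC and 3.99 CPM in the RTN. Room-air library 6, with 12.1 CPM in the NTS, had 3.42 CPM in the VRC and 7.67 CPM in the RTN, the highest RTN value. Library 5 after 3 h of CO2, with 12.3 CPM in the NTS, had 8.54 CPM in the VRC, the highest VRC value, and 3.00 CPM in the RTN. Library 6 after 3 h of CO2, with 15.4 CPM in the NTS, had 6.47 CPM in the VRC and 3.84 CPM in the RTN.

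**Figure D4:**
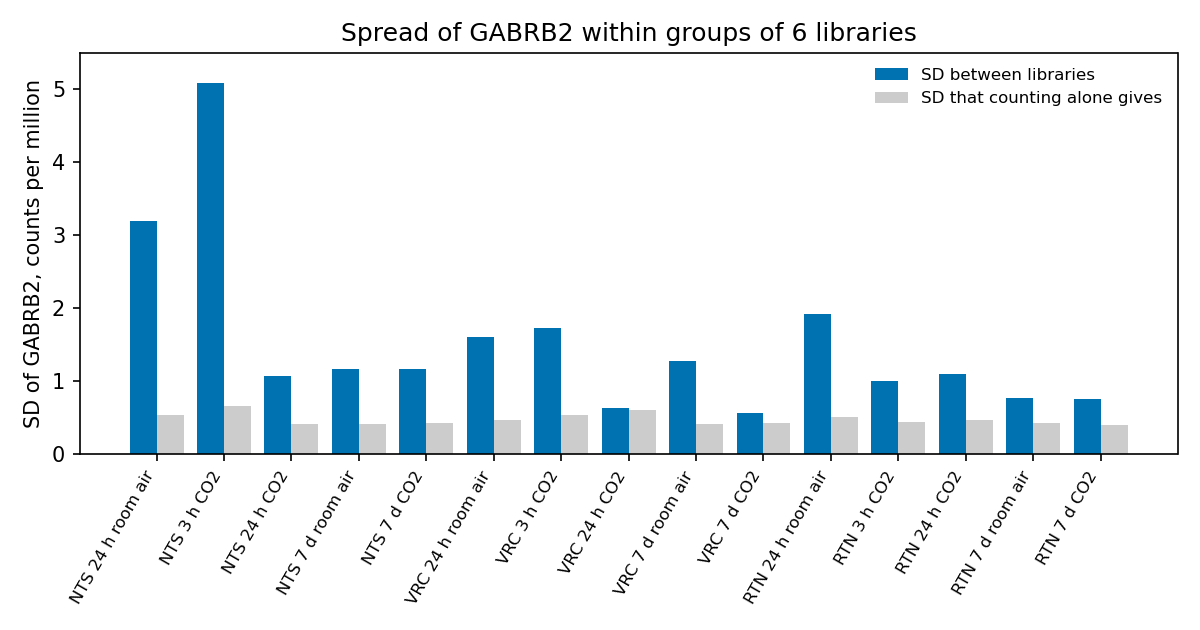
SD of GABRB2 between the 6 libraries of each group (dark bars, CPM) beside the SD that counting reads alone would give (light bars), for 15 groups. The bars of NTS room air and NTS 3 h CO2 reach 3.19 and 5.08 CPM, against counting SDs of 0.538 and 0.655 CPM.

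Spread within groups was larger than counting error in most groups, by a factor that differed widely. In the NTS after 3 h of CO2 the SD was 7.76 times what counting alone would give, and in NTS room air of the first batch 5.93 times. Without the libraries that stood apart these SDs were 2.15 and 1.00 CPM in place of 5.08 and 3.19 CPM (n = 4 each). The VRC after 24 h of CO2 had a factor of 1.05, although it holds the shallowest library, number 4 with 5456538 counts and 30 counts of GABRB2. The VRC after 7 d of CO2 had a factor of 1.32, and the 11 other groups lay between 1.80 and 3.79. As a share of the mean, the SD ran from 12.5% in the VRC after 24 h of CO2 to 65.0% in the NTS after 3 h.

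The genes closest to GABRB2 in pattern were sought among 222 genes that have a symbol and average at least 1 CPM, all of them picked by the authors on these libraries. Over the 15 group means of log2 CPM the highest Pearson r were those of ZFHX4, a zinc-finger homeobox factor, at 0.72, HBQ1, a globin gene, at 0.68, AK7, an adenylate kinase, at 0.58, ESPN, an actin-bundling protein, at 0.57 and GADD45GIP1, a protein of mitochondrial ribosomes, at 0.57. Over all 14271 genes of at least 1 CPM the median r was -0.01 and the 95th percentile 0.44. ZFHX4 was number 16 of them, and the highest was ENSCHIG00000015213 at 0.80. Means of ZFHX4 were 28.3 CPM in NTS room air, 39.5 CPM after 3 h and 16.1 CPM after 24 h of CO2. GABRB2 stood in the same order with all libraries, and was chosen on the room-air and 24 h groups. ZFHX4 measured 47.1 and 46.4 CPM in room-air libraries 5 and 6, and 77.1 and 65.6 CPM in libraries 5 and 6 of 3 h. GABRB2 averaged 5.15 CPM in room air and 4.78 CPM after 3 h once the libraries that stood apart were left out. Without the 5 libraries that stood apart the order of these genes differed: the r over group means was 0.72 for GADD45GIP1, 0.57 for ZFHX4, 0.55 for HBQ1, 0.39 for ESPN and 0.38 for AK7.

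Within groups, where exposure and site are subtracted, the highest r over 90 libraries were those of ZFHX4 at 0.70, GNG3, a G-protein gamma subunit of neurons, at 0.66, PRPH at 0.59, DPYSL3, a protein of growing axons, at 0.59 and TM4SF4, a tetraspanin-like membrane protein, at 0.56. Among all genes the median was -0.01 and the 95th percentile 0.39. Without the 5 libraries these values were 0.59, 0.54, 0.43, 0.42 and 0.35. The r varied between sites and between the first batch (18 libraries a site) and the second (12 libraries). GNG3 had 0.92 and 0.52 for NTS libraries, 0.59 and -0.07 for VRC libraries, and 0.64 and -0.05 for RTN libraries. ZFHX4 had 0.88 and 0.82 for NTS libraries, 0.13 and 0.46 for those of VRC, and 0.76 and 0.32 for those of RTN. Without the libraries that stood apart the first-batch NTS values were 0.78 for GNG3, 0.62 for ZFHX4 and 0.51 for PRPH. PRPH, with 0.88 and 0.67 in the NTS with all libraries, had 0.31 and 0.39 in the RTN, where PRPH ranged from 25.5 to 950 CPM, and 0.23 and -0.24 in the VRC. No RTN library had GABRB2 above 7.67 CPM. These correlations share library depth and normalisation and are descriptions.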

How the data were processed

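Per the labels, RNA was extracted with a lipid tissue kit and libraries were made with SMART-Seq v4 and Nextera XT and read as 100-bp pairs. Per the submitters' processing notes, the tools included STAR 2.7.10b, featureCounts 2.0.6, fastp 0.24.0 and edgeR 4.6. The annotation was not given in the sources used here, nor was the build. The authors deposited raw counts per gene, of which all 90 columns were used. In their deposited gene tables fold change and abundance are log2 values, LR is a score and PValue and FDR are p-values, per the file headers. An edgeR likelihood ratio fit over 90 libraries (minimum count 5) matched 341 of 342 deposited entries to 1 gene each by mean log2 abundance (differences at most 1.78e-15) and linked 238 symbols; the RefSeq table held 0 Ensembl identifiers.

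Tests ran across the whole table with edgeR 4.0.16 under R 4.3.3 (TMM, filterByExpr, glmQLFit with legacy=FALSE and robust=TRUE, Benjamini-Hochberg over all genes, threshold 0.05), checked on simulated data. CO2 comparisons used the site's libraries of 1 batch, site comparisons all libraries of the batch, and the 7 d minus 24 h effects all 30 libraries of the site. The log2 CPM used a prior count of 2, and 95% intervals use the fit's degrees of freedom. Counting SDs and depth cover counting error only. Alternatives were DESeq2 1.42.0, limma 3.58.1 voom with quality weights, RLE factors, other filters, other libraries in the fit, an exact permutation test and the replicate number as a block. For CO2 against room air each library was also left out in turn. The member, the lists and the rule for like genes (5 highest Pearson r over 15 group means and 5 over 90 libraries within groups) were chosen with earlier results of these data known. Of 56 genes on lists of GABA and glycine receptors, GABA metabolism, inhibitory synapse and chloride gradient, only GABRB2 could be linked, and the others are not analysed here. The VRC minus RTN contrasts of the effect and some fits without the libraries that stood apart or without the NTS were added after the data were seen.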

Additional observations from a re-analysis of the deposited data

Results flagged for a closer look

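In the VRC of goats kept 7 d in room air, library 1 held 6.87 CPM of GABRB2 while the other 5 held 3.49 to 4.01 CPM. The gap between library 1 and the next was 0.847 of the whole range of the group, above Dixon's 95% critical value for 6 values. Of the 15 groups tested 1 met this, and chance gives about 1 in 20 groups. Without this library the log2 difference of 7 d of CO2 from room air in the VRC was 0.25 in place of 0.07, and it did not pass 0.05 (edgeR, adjusted p = 0.741).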

How the results depend on the processing

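In the 18 tested comparisons GABRB2 passed 0.05 in 0 of 134 fits under other settings (lowest adjusted p 0.501). Fits that left out 1 library were made only for the 7 tested comparisons of CO2 with room air. In these GABRB2 passed in 0 of 108 edgeR fits (lowest adjusted p 0.296). Among the 134, the fits at 7 d of the libraries of both groups alone are the main fits again, as the second batch holds only those groups of a site. Unadjusted, the VRC at 3 h passed without either of 2 libraries. The NTS at 24 h is the comparison on which the gene was chosen, so its values are a description. There the log2 difference kept its sign in all 11 other settings, at -0.98 to -0.64, and with each library left out. In the NTS at 3 h it changed sign in 4 fits, those without the libraries that stood apart, without number 5 or 6 of 3 h (-0.06 and -0.19), and on the log2 means of the permutation test (-0.01). Tested values near 0 also changed sign. With 1 library left out, the NTS at 7 d ran from -0.088 to 0.12, the VRC at 24 h from -0.024 to 0.30 and the RTN at 3 h from -0.26 to 0.0025. The 7 d minus 24 h effect in the VRC was -0.039 by DESeq2 and -0.0010 by voom. VRC minus RTN was 0.0020 in 24 h and -0.034 in 7 d room air by voom.

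With the replicate number as a block the 7 d minus 24 h effect in the VRC was -0.0075; the block changed no call of GABRB2. The labels do not say that a number marks a goat, but over all genes 88 of 90 pairs of punches of the same exposure correlated best with their own number (r 0.0597 to 0.491). Across exposures of a site, which are different goats, the median r was 0.15 or less, although single pairs in the NTS reached 0.545.

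Counts of genes past 0.05 for CO2 against room air moved by over 1.5 times with the setting. At 3 h, 24 h and 7 d they were 0, 0 and 1 in the NTS with highest values under other settings of 12, 273 and 75, in the VRC 2, 126 and 0 with 121, 274 and 2, and in the RTN 2, 0 and 0 with 17, 9 and 2. The VRC count at 3 h was 180 without number 3 of 3 h and 78 without number 5 of room air. The NTS count at 24 h was 114 without number 5 of CO2 and 72 without number 5 of room air. Between sites, counts in room air rose up to 3777 with the block, and VRC against RTN in 24 h rose from 892 to 1727 without the NTS libraries in the fit. The VRC count at 24 h fell to 52 without its shallow library, number 4, and to 18 without number 1 of CO2. The smallest counts of GABRB2, 30 and 32, limit the precision of single libraries.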
